A study of Mus musculus with 24 samples.

Results

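Glypicans and syndecans are the 2 families of cell-surface proteins that carry heparan sulfate chains, and 9 of their genes were followed here in mouse colon fibroblasts: the glypicans Gpc1, Gpc2, Gpc3, Gpc4 and Gpc6 and the syndecans Sdc1, Sdc2, Sdc3 and Sdc4. They were chosen by name among the 30827 genes of the array table, and the brightest probe set stood for a gene that had more than 1, which concerned Gpc4 alone. Levels are RMA log2 values, an array brightness on a log scale, so that levels of different genes are not set against each other and a difference of 1 is a doubling of the signal. The cells were flow-sorted from the colon by the surface protein gp38 after removal of cells with Epcam (epithelium), CD45 (leukocytes) or CD31 (endothelium), and 24 samples were each hybridised to 1 array. All mice carried Villincre-ERT2-ZsGreen, an inducible Cre driven by a promoter of the intestinal epithelium, together with a fluorescent reporter. The 7 WT samples were IhhWT-ApcWT, the 8 ApcKO samples were IhhWT-ApcKO, and the 9 IhhKO_ApcKO samples, the double knockout, were IhhKO-ApcKO. The labels used here give neither age nor sex of the mice. The study concerns Hedgehog signalling in the formation of colonic adenomas, and since the Cre acts in epithelium, the fibroblasts are the neighbours of cells that lost the tumour suppressor Apc, with or without the Hedgehog ligand Ihh. Whether the arrays of a group stand for different mice is not stated in the labels, so p-values measure the spread between these samples, and in sorted bulk RNA fewer cells of a type and less RNA per cell cannot be told apart.

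Heparan sulfate is a long, sulfated sugar chain that binds Hedgehog, Wnt, FGF, BMP and chemokine proteins and so shapes how far these signals travel and how strongly cells receive them. Glypicans are held on the outer membrane by a lipid anchor. Syndecans span the membrane and end in a short cytoplasmic tail that binds scaffold proteins and the cytoskeleton. In mice, Gpc3 binds Hedgehog ligand in competition with the receptor Ptch1, while Gpc6 promotes Hedgehog signalling in growing bone. Both families are therefore of interest in a tissue where the Hedgehog supply from the epithelium was removed.

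Fibroblast markers were bright on average on all arrays. The mean of the 9 measured fibroblast markers lay between 10.20 and 10.73 on every array. The dimmest of them, Thy1, ranged from 7.25 to 7.95, below the 95th percentile of the negative controls, 8.09. In the double knockout 7 of the 9 had a lower mean than in ApcKO and 7 a lower mean than in WT. At an unadjusted p under 0.05 they numbered 0 and 2 (Thy1 and Vim), none past the adjusted threshold. Means per array of leukocyte, plasma cell, blood endothelial, enteric glial, mesothelial and pericyte markers lay between 4.78 and 6.37, against a median of 4.60 for negative controls, whereas 16 epithelial markers averaged from 5.53 to 8.30 and 6 smooth muscle markers from 7.36 to 8.41. All 6 smooth muscle markers had a lower mean in the double knockout than in ApcKO (list mean 7.75 ± 0.26, SD, n = 9, and 8.12 ± 0.17, n = 8), each at an unadjusted p under 0.05 and none past the adjusted threshold, and their part in the results below was not tested. The mean level of the Hedgehog target Gli1 was 8.22 ± 0.14 (SD, n = 8) with Ihh intact in ApcKO, and the double knockout had 6.92 ± 0.42 (n = 9). The double-knockout array B9 stood apart, with Gli1 at 7.99, and member differences that turn on it are given with and without it. The sample codes also bear a letter that ran almost along with genotype (A for WT and the ApcKO array A9, B for the other ApcKO arrays and B9, C for the rest), so that letter and genotype can hardly be separated.

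No glypican or syndecan passed the test between any 2 genotypes. With limma across all genes and a Benjamini-Hochberg adjusted p under 0.05, 0 of 9 members passed in ApcKO minus WT, 0 of 9 in IhhKO_ApcKO minus ApcKO and 0 of 9 in IhhKO_ApcKO minus WT. Over all genes 0%, 0.0454% and 0.0811% were called in the same order. By direction, 0.00324% of all genes were called higher and 0.0422% lower in the double knockout than in ApcKO, and 0.00973% higher and 0.0714% lower than in WT. At an unadjusted p under 0.05 the members numbered 0, then 2 (Sdc1 and Sdc4), then 3 (Sdc1, Sdc3 and Sdc4), where 4.41%, 4.94% and 7.62% of all genes reached that level. The comparisons share arrays (ApcKO, the double knockout and WT each enter 2 of them), so they are not separate evidence for a gene. The ranges of the groups overlapped for every member in every comparison, and 0.00649%, 0.0227% and 0.0714% of all genes had groups that did not overlap. All 9 genes lay above the negative control median on all 24 arrays. The 95th percentile of the negative controls, 8.09, was passed on all 24 by Gpc6, Sdc2 and Sdc4, on 22 by Gpc3 and on none by the other 5 genes, the dimmer ones.

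**Figure D1:**
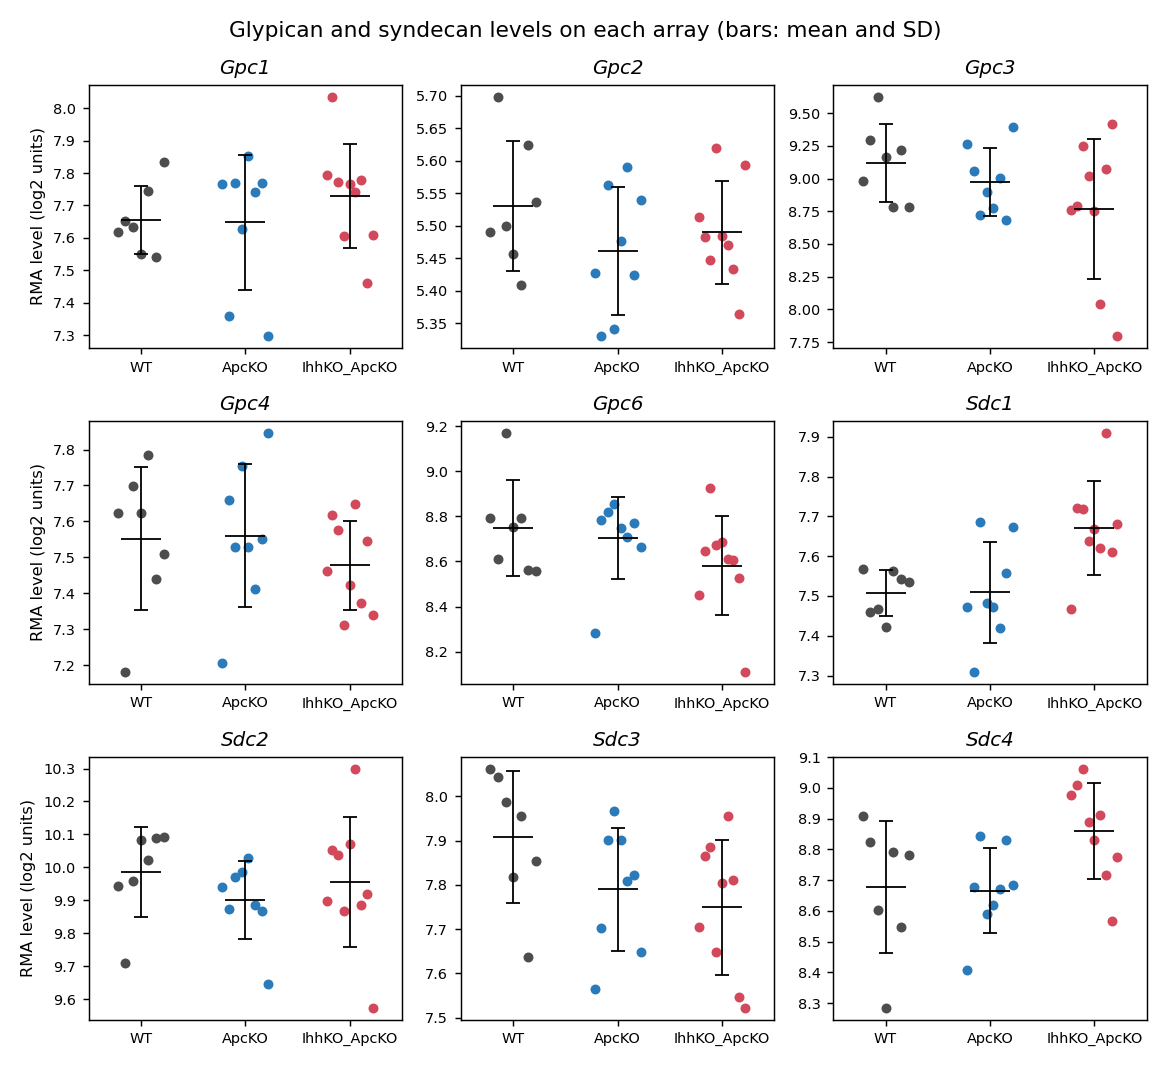
RMA level in log2 units (vertical axis, a separate scale for each gene) of the 9 members on each array, with points for the 7 WT, 8 ApcKO and 9 IhhKO_ApcKO arrays and a black bar for the group mean with its SD. The genotypes overlap for every gene; most double-knockout points of Sdc1 lie above the WT points, and 2 double-knockout points of Gpc3, at 7.80 and 8.04, lie far below the rest.

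Among the glypicans, Gpc3 (Entrez gene 14734, on the X chromosome) had the widest spread, with levels from 7.80 to 9.62 over the 24 arrays. In WT its lowest, median and highest levels were 8.78, 9.16 and 9.62. In ApcKO they were 8.68, 8.95 and 9.39. In the double knockout they were 7.80, 8.79 and 9.42. The group means thus ran from WT (9.12 ± 0.30, SD, n = 7) over ApcKO (8.97 ± 0.26, n = 8) to the double knockout (8.77 ± 0.54, n = 9), and 2 double-knockout arrays, C9 at 7.80 and C5 at 8.04, lay below all others while the rest overlapped with ApcKO and WT. The log2 difference from WT was -0.353 in the double knockout (SE 0.18, 95% interval -0.732 to 0.0258, adjusted p = 0.69) and -0.146 in ApcKO (SE 0.19, adjusted p = 0.97), and the double knockout differed from ApcKO by -0.208 (SE 0.18, adjusted p = 1.0). Without C9 these double-knockout differences were -0.232 from WT and -0.0863 from ApcKO, and without B9 they were -0.352 and -0.207. Without C5 the difference from ApcKO was -0.117, and without the WT array A3 that of ApcKO from WT was -0.0615. Blocking on the code letter gave 0.146 in ApcKO minus WT and -0.0272 in IhhKO_ApcKO minus WT.

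The 2 lowest Gpc3 arrays were also low in Xist, the RNA that coats the inactive X chromosome, a split noticed in the data and given without a test. Over the whole series 11 arrays had Xist under 5, 11 had it over 10 and 2, both WT, lay between. These classes were spread unevenly over the genotypes, and the labels, which give no sex, do not name them. In the double knockout the 3 arrays with Xist under 5 had Gpc3 levels of 7.80, 8.04 and 8.76, and the 6 arrays with Xist over 10 had levels from 8.76 to 9.42. In ApcKO the 5 arrays with Xist under 5 ranged from 8.68 to 9.06 and the 3 with Xist over 10 from 8.77 to 9.39. In WT the 3 arrays under 5 ranged from 8.78 to 9.29, the 2 between 5 and 10 were at 8.79 and 8.98, and the 2 over 10 were at 9.16 and 9.62. The median was higher over 10 than under 5 in each genotype, with 8.04 and 9.05 in the double knockout, 8.90 and 9.27 in ApcKO and 9.22 and 9.39 in WT. With the Xist level as a covariate the Gpc3 difference between the double knockout and WT was -0.449 (unadjusted p = 0.0080, adjusted p = 0.43), which still did not pass. With the same covariate the double knockout differed from ApcKO by -0.337 and ApcKO from WT by -0.112, and neither passed. For Gpc4, which is X-linked as well, the medians under 5 and over 10 were 7.46 and 7.48 in the double knockout, 7.55 and 7.53 in ApcKO and 7.44 and 7.66 in WT.

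Gpc6 (23888), the glypican that promotes Hedgehog signalling in mouse bone, ran in the same order of means as Gpc3. Its lowest, median and highest levels were 8.56, 8.75 and 9.17 in WT. They were 8.28, 8.76 and 8.86 in ApcKO and 8.11, 8.61 and 8.92 in the double knockout. The medians of WT and ApcKO were alike, and 8 of the 9 double-knockout arrays lay below the mean of each of the other genotypes. The log2 difference was -0.122 from ApcKO (SE 0.095, 95% interval -0.318 to 0.0735, adjusted p = 1.0) and -0.167 from WT (SE 0.099, 95% interval -0.370 to 0.0358, adjusted p = 0.74), both within the spread between arrays. Without C9, the lowest array, the differences were -0.0633 and -0.108, and without B9 they were -0.106 and -0.151. Without the WT array A3 the difference from WT was -0.0967, and blocking on the code letter gave -0.313 from ApcKO and -0.781 from WT, not past the threshold.

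The other glypicans differed less. Gpc1 (14733), a growth factor co-receptor, averaged 7.65 ± 0.10 (SD, n = 7) in WT, 7.65 ± 0.21 (n = 8) in ApcKO and 7.73 ± 0.16 (n = 9) in the double knockout. Gpc4 (14735), which acts in Wnt-driven cell movements in fish and frog embryos, averaged 7.55 ± 0.20, 7.56 ± 0.20 and 7.48 ± 0.12 in the same order. Gpc2 (71951), known mainly from the developing nervous system, averaged 5.53 ± 0.10, 5.46 ± 0.10 and 5.49 ± 0.08. The largest of the 9 differences between genotypes in these 3 genes was -0.0830, and the widest 95% interval among them allowed a change of up to 1.19-fold. Gpc2 was dim, below the median gene of the array. The 2 probe sets of Gpc4 did not move together (r = 0.254 over 24 arrays), and the dimmer one averaged 6.39 ± 0.12 in WT, 6.26 ± 0.22 in ApcKO and 6.31 ± 0.30 in the double knockout, so the order of the Gpc4 means depends on the probe set.

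Among the syndecans, Sdc1 (20969), the syndecan of epithelia and plasma cells, came nearest to a difference. Its lowest, median and highest levels were 7.42, 7.53 and 7.57 in WT. In ApcKO they were 7.31, 7.48 and 7.69. In the double knockout they were 7.47, 7.67 and 7.91. The double-knockout arrays lay above every WT array in 8 of 9 cases, and the exception was B9, the lowest of the group for Sdc1 and the array with Gli1 near Ihh-intact levels. Only 3 of 9 lay above every ApcKO array. The WT levels were close together (SD 0.058, n = 7), and those of ApcKO were wider apart (SD 0.127, n = 8). The log2 difference was 0.162 from ApcKO (SE 0.055, 95% interval 0.0480 to 0.275, unadjusted p = 0.0071, adjusted p = 0.62) and 0.163 from WT (SE 0.057, 95% interval 0.0454 to 0.281, unadjusted p = 0.0086, adjusted p = 0.42), about 1.12-fold each. By unadjusted p Sdc1 ranked 353 and 620 among the 30827 genes. Without B9 the differences were 0.187 (adjusted p = 0.29) and 0.189 (adjusted p = 0.22), still not past the threshold. ApcKO and WT had the same mean, 7.51. Blocking on the code letter, a fit carried by A9 and B9 alone, turned the Sdc1 differences to -0.046 and -0.081.

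Sdc1 is also made by epithelial and plasma cells, which the sort was meant to remove. Its correlation with the epithelial marker mean was r = 0.0632 over 24 arrays (rho 0.109, adjusted permutation p = 0.87 for r and 0.77 for rho), and within the genotypes it was 0.776 in WT, 0.0299 in ApcKO and -0.0211 in the double knockout. With that mean as a covariate the Sdc1 difference was 0.166 from ApcKO (adjusted p = 0.53) and 0.160 from WT (adjusted p = 0.43). The epithelial mean was 6.82 ± 0.74 (SD, n = 7) in WT, 7.37 ± 0.76 (n = 8) in ApcKO and 7.05 ± 0.88 (n = 9) in the double knockout, so that the double knockout lay below ApcKO and above WT. The 5 measured plasma cell markers averaged 5.18 ± 0.18 in WT, 5.06 ± 0.11 in ApcKO and 5.15 ± 0.11 in the double knockout, and 5 of 5 had a higher mean in the double knockout than in ApcKO, 1 of them (Mzb1) at an unadjusted p under 0.05. Against WT, 1 was higher and 4 were lower in the double knockout. In ApcKO all 5 were lower than in WT, among them Mzb1 at -0.2575 (limma, unadjusted p = 0.0012, adjusted p = 0.97). The part of the plasma cell markers in Sdc1 was not tested.

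Sdc4 (20971), the syndecan of focal adhesions, which works with integrins, had the largest positive difference of the 9 members in both comparisons of the double knockout. Its lowest, median and highest levels were 8.29, 8.78 and 8.91 in WT. In ApcKO they were 8.41, 8.67 and 8.84. In the double knockout they were 8.57, 8.89 and 9.06. There 5 of 9 arrays lay above every ApcKO array and 4 above every WT array. The log2 difference was 0.195 from ApcKO (SE 0.080, 95% interval 0.0304 to 0.360, unadjusted p = 0.022, adjusted p = 0.87) and 0.183 from WT (SE 0.083, 95% interval 0.0119 to 0.354, unadjusted p = 0.037, adjusted p = 0.62). Without B9, which was high for Sdc4 at 8.98, they were 0.181 and 0.168. The difference from WT was 0.118 without the WT array A4 and 0.0052 with the code letter as a block. ApcKO and WT differed by -0.0124 (SE 0.085).

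The promoters of Sdc1 and Sdc4 are shown because these 2 genes had the largest positive differences among the members in the double knockout. The sequences are RefSeq's, from 250 bases before to 50 after the gene start, written 5′ to 3′ on the gene's strand, and the capitals mark GGGCGG, the GC box bound by Sp1-type factors, where it occurs on either strand. The Sdc1 window lies on the plus strand at chr12:8771146-8771445 and the Sdc4 window on the minus strand at chr2:164443139-164443438, both in GRCm38.p6.
Sdc1: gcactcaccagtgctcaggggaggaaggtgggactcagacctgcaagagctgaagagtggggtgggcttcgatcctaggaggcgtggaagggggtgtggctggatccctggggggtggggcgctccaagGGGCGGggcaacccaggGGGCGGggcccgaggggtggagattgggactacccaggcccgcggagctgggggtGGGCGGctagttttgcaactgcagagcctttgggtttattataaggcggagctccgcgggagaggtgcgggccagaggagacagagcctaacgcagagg
Sdc4: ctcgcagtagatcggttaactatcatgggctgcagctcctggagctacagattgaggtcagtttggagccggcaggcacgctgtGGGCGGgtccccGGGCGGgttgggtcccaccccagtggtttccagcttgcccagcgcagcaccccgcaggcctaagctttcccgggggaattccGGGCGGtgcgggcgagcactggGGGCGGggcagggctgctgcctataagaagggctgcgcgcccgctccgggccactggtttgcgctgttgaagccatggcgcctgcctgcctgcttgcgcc

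The Sdc1 window holds 3 GC boxes and the Sdc4 window 4. RefSeq promoters were matched for 6 of the 9 members (Gpc2, Gpc3, Gpc4, Sdc1, Sdc3 and Sdc4), and all 6 hold at least 1, against 35.7% of the 32851 promoters of the same length. The GLI consensus GACCACCCA, searched on both strands, is in 0 of the 6 and in 0.253% of all promoters. TATAAA, also searched on both strands, is in 0 of the 6 and in 13.6% of all. The 32851 promoters were not limited by gene type or base content, so their shares are not a matched background. A match is a description of the letters in this window, and a missing match says only that they are not in it.

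Sdc3 (20970), a syndecan known from nerve and muscle, had its highest levels in WT. Its lowest, median and highest levels were 7.64, 7.96 and 8.06 in WT. In ApcKO they were 7.56, 7.82 and 7.97. In the double knockout they were 7.52, 7.80 and 7.96. In the double knockout 8 of 9 arrays and in ApcKO 7 of 8 lay below the WT mean, although most of them stayed within the WT range. The log2 difference from WT was -0.159 in the double knockout (SE 0.074, 95% interval -0.311 to -0.00693, unadjusted p = 0.041, adjusted p = 0.63) and -0.118 in ApcKO (SE 0.076, adjusted p = 0.97), and the 2 knockout groups differed by -0.0405 (SE 0.071). Without B9 and without C9 the double-knockout difference from WT was -0.153 and -0.130. Blocking on the code letter gave differences from WT of -0.462 in the double knockout and -0.343 in ApcKO, not past the threshold.

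Sdc2 (15529), the syndecan of mesenchymal cells, did not separate the genotypes. It averaged 9.99 ± 0.14 (SD, n = 7) in WT, 9.90 ± 0.12 (n = 8) in ApcKO and 9.96 ± 0.20 (n = 9) in the double knockout, and the widest of its 95% intervals allowed a change of up to 1.19-fold. As a group, 3 of 4 syndecans had a positive difference in IhhKO_ApcKO minus ApcKO, with a median of 0.109, and 3 of 5 glypicans a negative one, with a median of -0.0830. Of all 30827 genes 17454 were higher and 13373 lower there, with a median of 0.0107. In IhhKO_ApcKO minus WT 2 syndecans were higher and 2 lower (median 0.0671), and 4 of 5 glypicans were lower (median -0.0745). In that comparison 13849 of all genes were higher and 16978 lower, with a median of -0.0107.

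**Figure D2:**
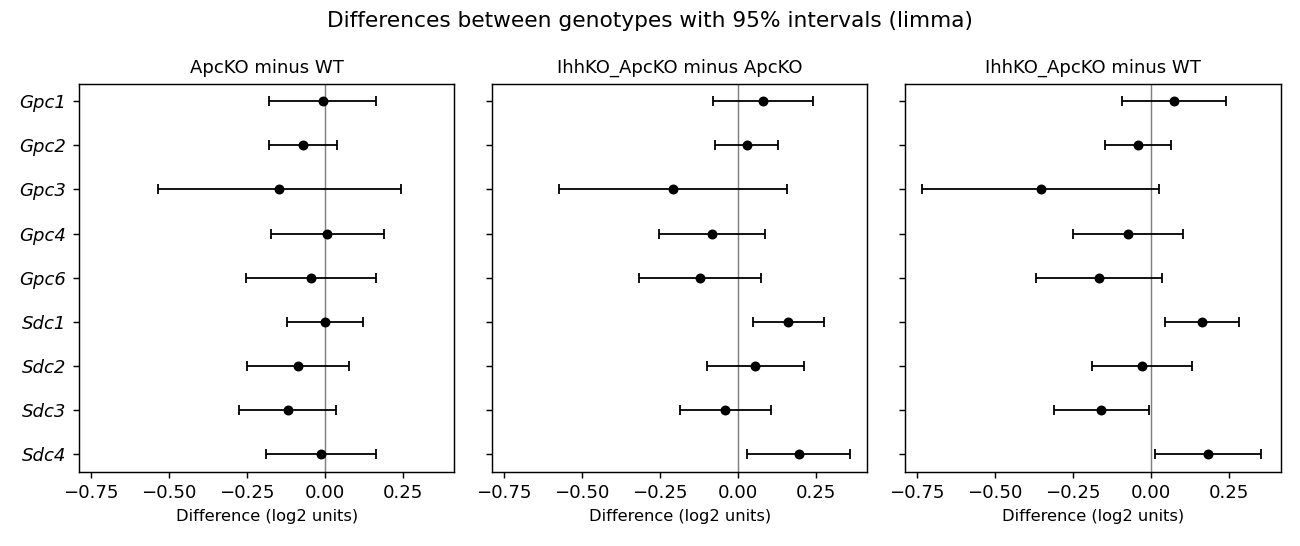
Log2 difference (horizontal axis) of each member in the 3 comparisons, with points for the limma estimate and bars for its 95% interval; the vertical grey line is 0. Intervals of Sdc1 and Sdc4 lie above 0 in both comparisons of the double knockout and that of Sdc3 lies below 0 against WT, before adjustment, and the widest intervals belong to Gpc3.

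Gpc6 and Sdc3 were lower on arrays with more epithelial signal: Gpc6 with r = -0.582 over 24 arrays (rho -0.499, permutation p = 0.0022 for r and 0.014 for rho, adjusted 0.015 and 0.062 over the 9 members) and Sdc3 with r = -0.579 (rho -0.604, permutation p = 0.0033 and 0.0023, adjusted 0.015 and 0.020). The relation of Gpc6 did not pass by rank once adjusted. Within the genotypes the r of Gpc6 was -0.471 in WT, -0.573 in ApcKO and -0.777 in the double knockout, and that of Sdc3 was -0.461, -0.902 and -0.439, negative in each. These permutations treat the 24 arrays as exchangeable, although 88.2% of the variance of the epithelial mean within genotypes, 69.7% of that of Gpc6 and 52.5% of that of Sdc3 lay along the digit of the sample code. With genotype and digit means removed, and levels permuted among arrays of the same digit, r was 0.016 for Gpc6 (adjusted permutation p = 0.96) and -0.354 for Sdc3 (adjusted permutation p = 0.45), so neither relation passed once the digit was taken into account. Without the 2 arrays farthest from the median epithelial level, C3 at 5.53 and C9 at 8.30, r was -0.578 for Gpc6 and -0.719 for Sdc3. Among the other 7 members r ranged from -0.352 (Sdc2) to 0.0632 (Sdc1), and none passed by r or by rho. For Sdc4 r was 0.180 in WT, -0.0935 in ApcKO and -0.498 in the double knockout. Array C9 had the highest epithelial mean of all and the lowest level of its group in 4 members, and the ApcKO array A9, with an epithelial mean of 8.17, was the lowest of its group in 4 as well, but the ApcKO array B8, at 8.19 the highest of its group in epithelial signal, was the lowest in 2 members and the highest in 2. C9 also had the highest leukocyte (5.48) and blood endothelial (6.19) marker means of the 24 arrays. In fibroblast markers only C3 (10.20) lay below C9 (10.27). The part of each in the low levels on C9 was not tested. With the epithelial mean as a covariate the Gpc6 difference was -0.173 from ApcKO and -0.129 from WT in the double knockout, and 0.044 in ApcKO minus WT. The Sdc3 difference was then -0.0743, -0.134 and -0.0594 in the same order, and none of the 6 passed. The part of epithelial RNA in the genotype differences was not tested beyond that covariate.

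**Figure D3:**
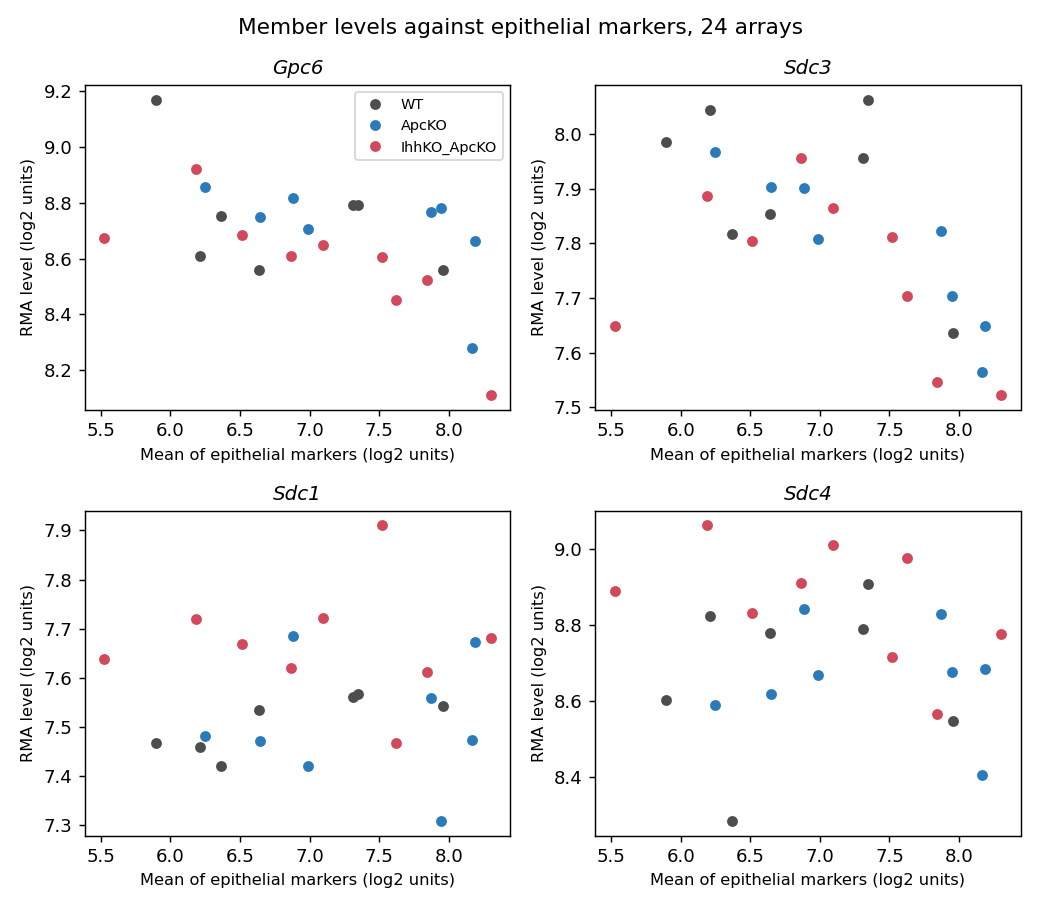
Level in log2 units of Gpc6, Sdc3, Sdc1 and Sdc4 (vertical axis) against the mean of 16 epithelial markers in log2 units (horizontal axis), 1 point per array, coloured by genotype. Gpc6 and Sdc3 are lower on arrays with more epithelial signal over all 24 (r = -0.582 and -0.579), and the relation did not pass for Sdc1 and Sdc4 (r = 0.0632 and -0.155). That of Gpc6 did not pass by rank, and neither that of Gpc6 nor that of Sdc3 passed with genotype and code digit means removed.

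The members varied among themselves in a few pairs, given here as r over 24 arrays with the genotype means removed and as a description of arrays that share a normalization. Of the 36 pairs, Gpc6 and Sdc3 had the highest r, 0.641, followed by Sdc3 and Sdc4 at 0.563 and Gpc4 and Gpc6 at 0.550. The lowest was -0.550, between Gpc2 and Gpc4. For Gpc3, r with the other members lay between -0.299 (Gpc1) and 0.356 (Gpc6). Sdc1 and Sdc4, the 2 members with an unadjusted p under 0.05 in IhhKO_ApcKO minus ApcKO, had r = 0.440 over all arrays and 0.193 with the genotype means removed.

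**Figure D4:**
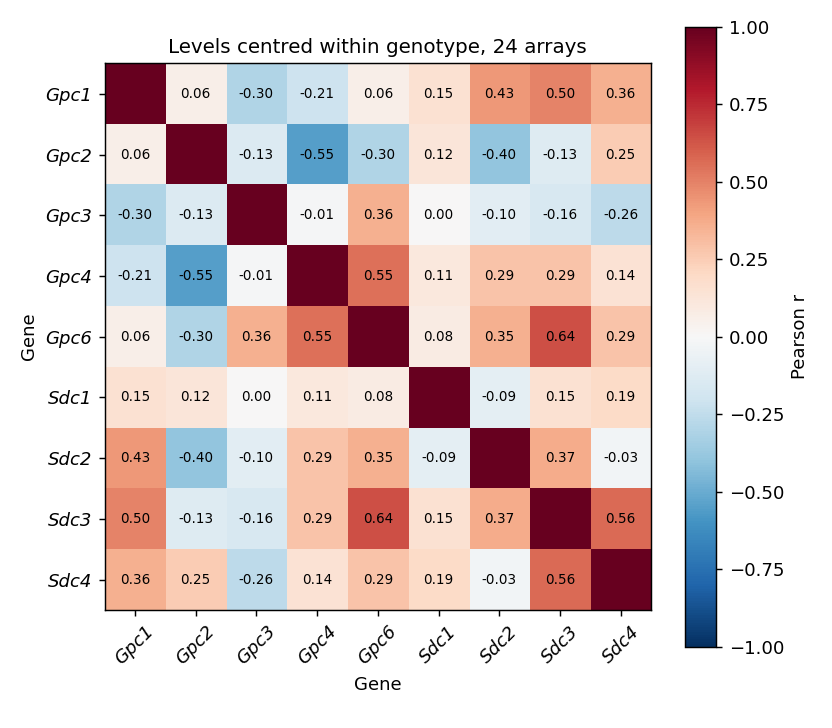
Pearson r between members over 24 arrays with each genotype's mean removed (colour scale from -1 to 1, value printed in each cell). The highest value is 0.64 for Gpc6 with Sdc3 and the lowest is -0.55 for Gpc2 with Gpc4.

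For each member the 3 most similar genes by Pearson r over 24 arrays were taken from the 15413 genes with a mean above the median gene, as a description of arrays that share their normalization. Sdc2 was most like Cask, a membrane scaffold whose PDZ domain binds syndecan tails (r = 0.853), Wls, the carrier that brings Wnt ligands to the cell surface (0.843), and Ppp4r3b (0.838). Sdc4 was most like the peptide transporter Slc15a3 (0.792), the NF-kappa-B inhibitor Tnfaip3 (0.742) and the EGF receptor ligand Ereg (0.728). Sdc1 was most like the syntaxin Stx4a (0.707), the ligand neuregulin Nrg1 (0.671) and Rai14 (0.665), and r was 0.581, 0.419 and 0.461 with the genotype means removed. For Sdc3 the genes were Adamtsl4 (0.809), the matrix receptor Dag1 (0.796) and the basement membrane collagen Col15a1 (0.792).

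Among the glypicans, Gpc3 was most like Pcolce2, an enhancer of procollagen processing (0.843), the transcription factor Ebf1 (0.820) and Adamtsl1 (0.785). Gpc6 was most like the mannosidase Man2b2 (0.867), Sec24d, a coat protein of secretory vesicles (0.858), and the sulfur transferase Nfs1 (0.857). The closest gene to Gpc1 was the lysosomal channel Mcoln1 (0.744), ahead of Dab2ip (0.725) and the receptor Lrp4 (0.719). Gpc4 had Zdhhc21 (0.748), Cryzl1 (0.737) and Surf1 (0.723), and the dim Gpc2 had Ism2 (0.699), Wdr4 (0.689) and Zbtb7b (0.675). For each member but Sdc1 the highest-ranked gene had an r of at least 0.698 with the genotype means removed. Each such gene was picked for the highest r among 15413 genes on these same arrays, so a high r is no separate evidence of a link. The r that unrelated genes would reach by such a choice was not computed.

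Among the other genes of the heparan sulfate pathway, 1 enzyme that modifies the chain passed the test. Ndst3, which removes acetyl groups from the chain and adds sulfate in their place, averaged 6.66 ± 0.25 (SD, n = 7) in WT, 6.56 ± 0.33 (n = 8) in ApcKO and 5.87 ± 0.25 (n = 9) in the double knockout, and fell by 0.690 from ApcKO (SE 0.13, adjusted p = 0.033) and by 0.785 from WT (SE 0.13, adjusted p = 0.013). Its group means lay above the negative control median, 4.60, but below the 95th percentile of the negative controls, 8.09, so Ndst3 was dim. Of the 16 measured modifying enzymes Ndst3 was the 1 that passed, in the lower direction, in each comparison of the double knockout, and 0 passed in ApcKO minus WT. Without B9 the Ndst3 differences were -0.733 (adjusted p = 0.014) and -0.828 (adjusted p = 0.0049). Against ApcKO the call was lost in 9 of the 17 fits that left out 1 array (without B3, B4, B5, C1, C2, C3, C6, C7 or C9, adjusted p up to 0.094), with median centring (adjusted p = 0.075), with the 2 groups alone (0.066) and with adjustment over all transcript clusters (0.056), and against WT in none of these. With the code letter as a block Ndst3 was at -0.245 (adjusted p = 0.86) against ApcKO and at 0.364 (adjusted p = 0.71) against WT. The sulfotransferase Hs3st3b1, next in that list, differed by 0.191 (SE 0.085, adjusted p = 0.95) from ApcKO.

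In the remaining lists 0 genes passed in either direction in any comparison. They were 6 measured core proteins of other heparan sulfate proteoglycans, 11 enzymes of the linker and chain, 12 genes of chain editing and core protein release, and 12 cytoplasmic partners of syndecans with integrins. At an unadjusted p under 0.05 they numbered, in that order, 0, 1, 1 and 0 in ApcKO minus WT, 0, 1, 0 and 1 in IhhKO_ApcKO minus ApcKO, and 0, 4, 1 and 1 in IhhKO_ApcKO minus WT. Of all genes 4.41%, 4.94% and 7.62% reached that level in these comparisons. The 4 linker and chain enzymes against WT were Extl2 (-0.196) and Xylt2 (-0.148), lower, and B3gat3 (0.111) and Fam20b (0.180), higher. The smallest p in these lists belonged to Tiam1, an exchange factor for Rac that binds syndecan tails. Its level was 6.51 ± 0.05 (SD, n = 7) in WT, 6.48 ± 0.14 (n = 8) in ApcKO and 6.28 ± 0.10 (n = 9) in the double knockout. These means too lay below the 95th percentile of the negative controls, 8.09. The log2 difference of Tiam1 was -0.205 from ApcKO (SE 0.054, adjusted p = 0.27) and -0.236 from WT (SE 0.056, adjusted p = 0.13). By the rule for named genes the others were the integrin Itgb3 at -0.172 (SE 0.10, adjusted p = 1.0), the linker enzyme B3gat3 at 0.102 (SE 0.045, adjusted p = 0.94) and the xylose kinase Fam20b at 0.134 (SE 0.081, adjusted p = 1.0), all against ApcKO. In that comparison too the membrane protease Mmp14, which can shed syndecans, was at 0.173 (SE 0.086, adjusted p = 1.0), the anchor-cleaving lipase Gpld1 at -0.128 (SE 0.071, adjusted p = 1.0), the core protein Srgn at 0.242 (SE 0.12, adjusted p = 1.0) and perlecan, Hspg2, at -0.108 (SE 0.087, adjusted p = 1.0).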

How the data were processed

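RNA of 24 sorted samples was hybridised to GeneChip Mouse Transcriptome Array 1.0 arrays after amplification with the 3′ IVT pico kit, per the labels' protocols. The authors deposited log2 signals summarised by RMA, per the submitters' processing notes. For the software that ran RMA and for a genome build, nothing is stated in these sources. Of 72688 probe sets, 6732 controls were left out. Of the remaining 65956 transcript clusters, 31388 could be given 1 gene, 1362 had several and stayed unnamed, and 33206 had no name here, which gave 30827 genes, with the brightest probe set for 423 of them. Groups came from the titles. limma 3.58.1 in R 4.3.3 (lmFit, eBayes, all 24 arrays, 1 model) tested 3 comparisons, with Benjamini-Hochberg adjustment over all genes. The fit was also run on simulated data with independent genes and arrays. These held no grouping along the code letter or digit, so that run cannot speak to such grouping. Correlations used 100000 permutations (two-sided), so that they are permutation tests, in Python 3.11.15. The number of arrays limits the precision.

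The members, lists and tests were chosen with earlier results of these data known. Named genes were all members, list genes past the threshold or else the 2 with the smallest p in IhhKO_ApcKO minus ApcKO, and the 3 genes most like each member. Alternatives were the probe set summary, a filter on dim genes, median centring, the variance model, array weights, 2-group fits, the features tested, code letter or digit as a block, epithelial or Xist level as a covariate, and leaving out single arrays. For the correlations they were the median over the markers, centring within genotype and leaving out the 2 most extreme arrays, and, added after seeing the data, removing code digit means. Some list genes, among them Pdgfra, Cd74, Nrp1, Ndst1 and Glce, were not analysed here.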

Additional observations from a re-analysis of the deposited data

Results flagged for a closer look

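4 of the 27 combinations of member and genotype held an array far from the others, by the gap to its nearest array relative to the group's range, and chance alone flags about 1 in 20. The WT array A3 was high for Gpc6, at 9.17, with the next array at 8.79. The ApcKO array A9 was low for Gpc6, at 8.28, with the next at 8.66. For Sdc2 the WT array A2 was low, at 9.71, with the next at 9.94, and the ApcKO array B8 was low, at 9.645, with the next at 9.87. Neither gene passed the limma test in any comparison without these arrays.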

How the results depend on the processing

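No member passed under any alternative: over 726 recomputed differences the lowest adjusted p (limma) was 0.22, for Sdc1 in IhhKO_ApcKO minus WT without B9, and 685 kept their direction. The number of genes called over the whole array moved more. In ApcKO minus WT it went from 0 to 113 with the code letter as a block. In IhhKO_ApcKO minus ApcKO it went from 14 to 23 with the filter on dim genes, 8 with median centring, 65 with array weights and 53 with the letter as a block, and it ranged from 8 to 41 when single arrays were left out (41 without B9, 25 without A9, 9 without B4, B5, C1 or C7, 8 without C6). In IhhKO_ApcKO minus WT it went from 25 to 16 with median centring, 45 with array weights, 7 with the 2 groups alone, 84 with the letter as a block and 14 with the code digit as a replicate block, and it ranged from 12 to 67 when single arrays were left out (67 without B9, 16 without A1 or C7, 15 without A4, A8 or C6, 13 without C4, 12 without A5 or A6). Of the 14 and 25 genes, 0 and 0 were called with the letter as a block. The cause was not tested; letter blocks rest on A9 and B9, the arrays that share a letter with another genotype.

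Signs turned for small differences, and with the letter as a block for larger ones as well. These larger ones were Gpc3 in ApcKO minus WT (-0.146 in the main fit) and Sdc1 in IhhKO_ApcKO minus ApcKO (0.162) and IhhKO_ApcKO minus WT (0.163). In ApcKO minus WT, Gpc4 was at -0.059 with the mean of its probe sets, and median centring gave 0.020 for Gpc1 and 0.014 for Sdc4. Array weights gave 0.0040 for Gpc1, -0.0082 for Sdc1 and 0.012 for Sdc4. The letter as a block gave 0.112 for Gpc1, 0.146 for Gpc3, -0.347 for Gpc4 and -0.035 for Sdc1. The epithelial covariate gave 0.024 for Gpc1, 0.044 for Gpc6, -0.0066 for Sdc1 and 0.0057 for Sdc4. Leaving out single arrays gave -0.036 to 0.044 for Gpc1, -0.053 to 0.059 for Gpc4, -0.077 to 0.025 for Gpc6, -0.024 to 0.030 for Sdc1 and -0.078 to 0.026 for Sdc4. With the letter as a block Sdc1 turned to -0.046 in IhhKO_ApcKO minus ApcKO and -0.081 in IhhKO_ApcKO minus WT. In the latter comparison Sdc2 was at 0.012 with array weights, 0.0052 with the digit block and between -0.075 and 0.019 without single arrays. The correlations of Gpc6 and Sdc3 with epithelial markers passed with the median over the markers, with genotype means removed and without the 2 extreme arrays, but that of Gpc6 did not pass by rank (adjusted p = 0.062). With genotype and digit means removed, an alternative chosen after seeing the data, they were 0.016 and -0.354 and did not pass. That of Gpc3 turned to 0.045 without the 2 extreme arrays, and that of Gpc4 to -0.044 without them and -0.013 with genotype means removed. The filter on dim genes left Gpc2 untested.

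Arrays of different genotypes with the same digit had a median correlation of 0.176 between their deviations from the genotype means (20 pairs, 15 of them over 0.1). Those with different digits had a median of -0.0335 (171 pairs, 46 of them over 0.1). Not all same-digit pairs exceeded 0.1, and the digit was left out of the main fit and used as an alternative. The p-values of the main fit therefore do not take grouping along the digit into account. With the digit as a replicate block the Sdc4 difference between the double knockout and ApcKO was 0.230 (unadjusted p = 0.0063, adjusted p = 0.46), against 0.195 without it.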

Other observations

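The digit of the sample code ran along with the epithelial signal across genotypes, a pattern noticed in these data and not a label of the study. The 3 arrays with the digit 3 had epithelial marker means from 5.53 to 6.25 and the 3 with the digit 4 from 6.37 to 6.65, whereas the 2 with the digit 7 were at 7.84 and 7.87 and the 3 with the digit 9 between 7.62 and 8.30. After genotype, 88.2% of the variance of the epithelial mean lay along the digit, where 8 digit terms among 21 degrees of freedom take 38.1% by their number alone. Among the members the share was 69.7% for Gpc6, 52.5% for Sdc3, 51.0% for Sdc4, 42.5% for Sdc1, 39.2% for Gpc4 and 30.9% or less for the rest.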
